A study of Gallus gallus with 4 samples.

Results

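Tail-to-tail pairs are neighbouring transcription units (TUs) on opposite strands that are transcribed towards each other, so that their 3′ ends meet. Here a pair consisted of a forward TU and a reverse TU to its right whose spans overlapped by at least 1 bp with neither nested in the other. Each TU was a gene of the StringTie assembly and was read from whichever of its transcripts had the highest FPKM (fragments per kilobase of transcript, scaled to the reads of the run). It needed at least 2 exons, a span of at least 5 kb and the strand of its assembly run. On chromosomes 1 to 15 and 17 to 28 the rule found 698 pairs, built from 1395 of 12357 eligible TUs (11.3%). The complete assembly held 22884 TUs and, with no limit on exons, span or chromosome, 5090 overlapping pairs of TUs on opposite strands. The transcript of each TU was chosen by its measured FPKM, and the pairs were chosen by assembled exons, span and position. The direction of the TUs, the overlap and the span are therefore properties of the rule and are given as a description.

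The RNA came from wild-type chicken oocytes with lampbrush chromosomes (LBCs). Poly(A) RNA of 2 nuclei and of 2 ooplasm samples, each from a single cell, was sequenced with strand information. The reads were pooled with those of earlier total RNA libraries of oocyte nuclei before a single assembly was made, and whether ooplasm reads entered this pool is not stated. All values below therefore describe 1 assembly with no replicates, no value per sample and an unknown depth per library, so differences between classes of pairs could not be set against a replicate error and no test was made. TU identifiers are not paired with gene names in the files, so oocyte marker genes could not be looked up and the TUs are named by identifier.

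The lampbrush stage belongs to the prophase of meiosis, when paired chromosomes extend lateral loops along which transcribing polymerases are densely packed. Where convergent genes overlap, the same stretch of DNA is copied from both strands, and the transcripts share complementary sequence over that stretch. A polymerase normally passes the polyadenylation site before transcription ends, the last exon of a spliced gene usually holds most of the 3′ untranslated region, and alternative polyadenylation changes the length of that exon. On newt lampbrush chromosomes, transcription beyond the normal end of a gene has been described at histone genes.

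The tail-to-tail pairs were set beside 2 other classes built from TUs that met the same limits. The first held 1891 convergent pairs, adjacent in order of start, that did not overlap. Their gaps had a median of 14.7 kb (quartiles 3.41 and 59.1 kb, at most 1244 kb). Adjacency was taken among eligible TUs only, so other TUs could lie between these partners. The second held 637 head-to-head pairs, in which the 5′ ends overlapped. Partners of tail-to-tail pairs were adjacent in order of start in 682 of 698 pairs, and only REV.26 on chromosome 1 belonged to more than 1 pair. A total of 221 further overlapping pairs were nested and were left out by the rule.

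The shared stretch was long, and it was mostly made of exon sequence of at least 1 partner. The exon content is tied to the rule, because both borders of an overlap are outer ends of exons. The overlap of tail-to-tail pairs had a median of 3.25 kb (quartiles 1.34 and 5.57 kb, range 0.010 to 55.4 kb), against 0.697 kb in head-to-head pairs (quartiles 0.311 and 1.43 kb). It reached 1 kb in 572 tail-to-tail pairs (81.9%) and 239 head-to-head pairs (37.5%), and 10 kb in 51 tail-to-tail pairs (7.31%) and 18 head-to-head pairs (2.83%). Relative to the shorter TU of the pair, the overlap had a median of 25.4% of the span in tail-to-tail pairs and 6.10% in head-to-head pairs. In 199 tail-to-tail pairs (28.5%) the shared stretch was at least 50% of the shorter TU, and in 96 pairs at least 75%. The span of the TUs was similar in both classes, with medians of 17.8 and 16.7 kb. The exons at the overlapping ends were not alike in length. Last exons in tail-to-tail pairs had a median of 2.95 kb, and first exons in head-to-head pairs 0.57 kb. Their part in the length of the overlap was not separated.

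Within the overlap, exon lay on exon in 694 of 698 tail-to-tail pairs (99.4%) and in 615 of 637 head-to-head pairs (96.5%). The exon-on-exon stretch had a median of 1.51 kb in tail-to-tail pairs, at most 12.6 kb, and of 0.281 kb in head-to-head pairs. It filled the complete overlap in 217 tail-to-tail pairs (31.1%) and 144 head-to-head pairs (22.6%). The median share of the overlap that was exon on exon was 67.0% per tail-to-tail pair and 55.5% per head-to-head pair. Weighted by length the share was lower, since the 51 tail-to-tail pairs of 10 kb or more held 896334 bp of the sum. Summed over all tail-to-tail pairs, 3059713 bp were shared, of which 43.9% was exon on exon, 24.0% forward exon on reverse intron, 23.6% forward intron on reverse exon and 8.48% intron on intron. In head-to-head pairs the same shares of 1100961 bp were 26.6%, 31.4%, 22.1% and 19.9%. The strands thus contributed nearly equally to the exon-on-intron part of tail-to-tail pairs.

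The makeup of the overlap changed with its length, as the plot of overlap length and composition shows. Each overlap begins and ends at the outer end of a last exon. An overlap shorter than both last exons is therefore exon on exon by definition, and the change with length is tied to this geometry. Exon on exon made up 98.4% of the summed overlap in the 60 pairs under 0.5 kb, 82.0% in 183 pairs of 0.5 to 2 kb, 63.2% in 245 pairs of 2 to 5 kb, 40.0% in 159 pairs of 5 to 10 kb and 20.2% in the 51 pairs of 10 kb or more. Intron on intron appeared mainly in the longest class, where it was 24.6% of the summed overlap. Pairs with longer overlaps were also weaker. The median FPKM of the stronger TU was 13.8, 12.2, 11.1, 7.83 and 5.45 along these 5 classes, and that of the weaker TU 4.30, 3.64, 2.72, 1.98 and 1.69. Spearman's rho across the 698 pairs was -0.27 between overlap length and the FPKM of the weaker TU and 0.02 between overlap length and the absolute log2 ratio of the 2 FPKM values. The pairs share 1 assembly and the same reads, so these correlations are descriptions. The FPKM of a TU includes its last exon, and longer last exons had lower coverage relative to the other exons. Level and overlap length are therefore not independent.

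**Figure D1:**
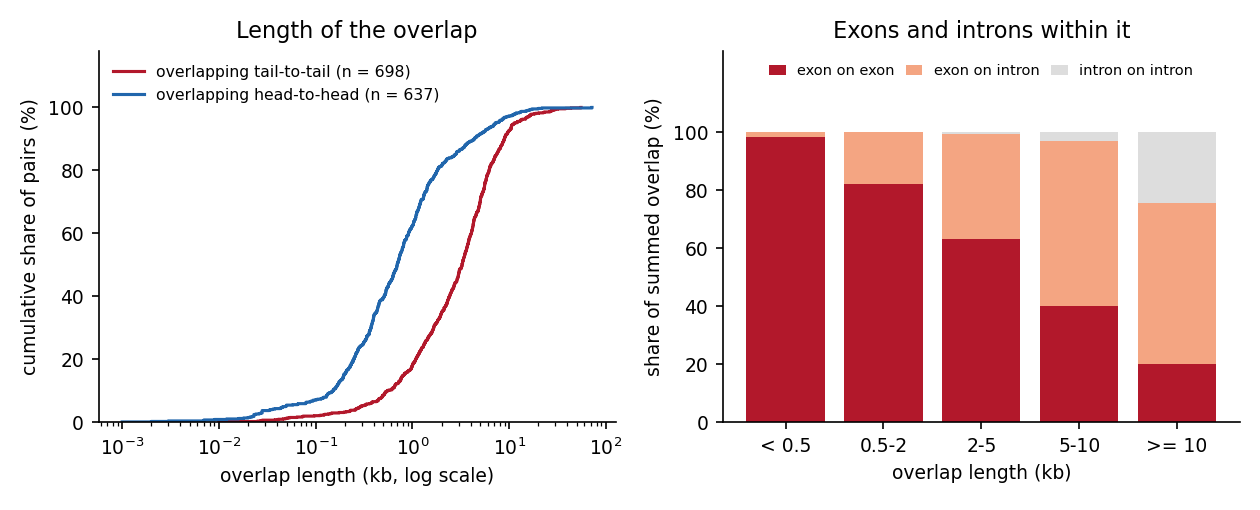
Left, cumulative share of pairs (%) against overlap length (kb, log scale) in 698 tail-to-tail and 637 head-to-head pairs, with the tail-to-tail curve shifted to longer overlaps (medians 3.25 and 0.697 kb). Right, share of the summed overlap (%) made of exon on exon, exon on intron or intron on intron in 5 classes of overlap length (kb) of tail-to-tail pairs, in which exon on exon falls from 98.4% to 20.2% with length. An overlap shorter than both last exons is exon on exon by definition.

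The longest overlaps mostly joined weak TUs with long introns or very long last exons. FORW.6255 (1940924 to 2004664) and REV.6098 (1949241 to 2026129) on chromosome 8 shared 55.4 kb, with FPKM values of 1.44 and 1.00. Only 950 bp of this stretch was exon on exon, and the other 54474 bp was forward intron on a single last exon of REV.6098 of 55680 bp. The coverage of that exon was 7.15 reads per base, against 19.5 in the other exons of the TU. In FORW.7615 and REV.7446 on chromosome 12, which shared 43.5 kb, 38119 bp was intron on intron and 115 bp exon on exon. This was the only pair with another TU of the assembly lying inside the overlap, and it is named for that reason with its values known. FORW.6943 and REV.6822 on chromosome 10 shared 38.2 kb, divided into 18961 bp of forward exon on reverse intron and 19029 bp of intron on intron, with 144 bp of exon on exon. The pair FORW.6033 and REV.5870 on chromosome 7 shared 31.8 kb and was the most unequal of the 6 longest, with FPKM values of 1.58 and 15.6. The remaining long overlaps were those of FORW.9039 and REV.8876 on chromosome 19 (30.1 kb) and of FORW.20 and REV.26 on chromosome 1 (29.1 kb).

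The longest exon-on-exon stretch was found on chromosome 10, where FORW.7043 (14556223 to 14592085) and REV.6916 (14578433 to 14636389) shared 13653 bp. Of these, 12577 bp was exon on exon, which included the complete last exon of REV.6916. Their FPKM values were 6.81 and 4.24. The last exon of FORW.7043, with 15015 bp, had a coverage of 23.1 reads per base against 114 in its only other exon, and that of REV.6916 had 7.81 against 79.4. Both long last exons were thus covered far less than the upstream parts of the same transcripts. It was followed by FORW.9039 and REV.8876 with 11145 bp, FORW.7942 and REV.7769 on chromosome 13 with 10649 bp, FORW.7267 and REV.7113 on chromosome 11 with 10163 bp, FORW.9658 and REV.9536 on chromosome 24 with 8998 bp and FORW.4916 and REV.4765 on chromosome 5 with 8862 bp. In these 6 pairs the FPKM values lay between 0.650 (REV.7769) and 6.81 (FORW.7043). Whether assembled exons of such length are exons of mature transcripts was not tested. No lower limit was set on intron length. In FORW.9658 the last exon began at 1209774 and the exon before it ended at 1209753. A gap this short was still counted as an intron, with its borders as splice sites. The last exon of FORW.7267, with 23155 bp, was the complete overlap of its pair, since REV.7113 ended exactly where it began. REV.7113 thus ended exactly at a splice site of FORW.7267.

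At the other end, 4 pairs had no exon on exon, and they were singled out after their values were seen. They were FORW.19 with REV.26 (overlap 27514 bp) and FORW.20 with REV.26 (29087 bp) on chromosome 1, FORW.4309 with REV.4167 on chromosome 4 (3800 bp) and FORW.8162 with REV.8019 on chromosome 14 (9570 bp). Both ends lay in introns of the partner in each of them, and no FPKM exceeded the 3.62 of REV.4167. The shortest overlaps lay in the last exons of both partners. They were 10 bp between FORW.5960 and REV.5836 on chromosome 7 (FPKM 28.8 and 13.4), 11 bp between FORW.8258 and REV.8085 on chromosome 15 (21.7 and 0.989), 25 bp between FORW.8948 and REV.8783 on chromosome 19 (74.1 and 26.9) and 27 bp between FORW.1838 and REV.1741 on chromosome 2 (2.28 and 0.968).

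**Figure D2:**
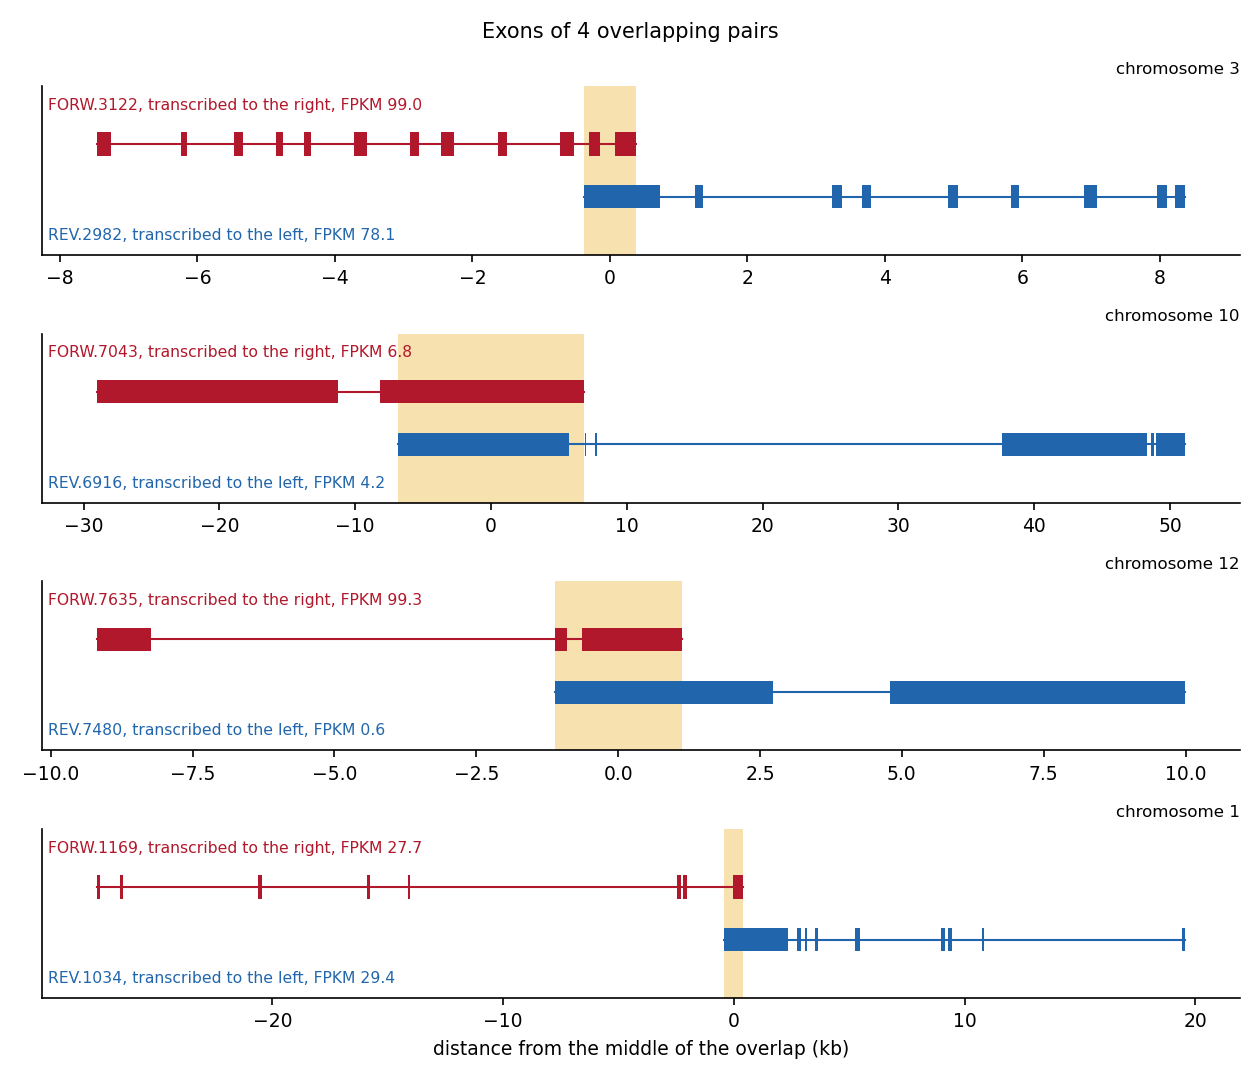
Exons (boxes) and introns (lines) of 4 tail-to-tail pairs against the distance from the middle of the overlap (kb), with the forward TU above, the reverse TU beneath and the overlap shaded. The 4 pairs are that with the highest weaker FPKM (99.0 and 78.1), that with the longest exon-on-exon stretch (12577 bp), the most unequal pair (99.3 and 0.570) and the most equal of the strong pairs (27.7 and 29.4).

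To see how far each transcript reached into its partner, the position of every 3′ end was read against the exons of the TU on the other strand. The forward end fell in the last exon of the partner in 363 pairs (52.0%), in another exon in 77, in the last intron in 104 and in an intron further upstream in 154. The reverse end did so in 391 (56.0%), 60, 90 and 157 pairs. Thus 217 pairs overlapped by their last exons at both ends, 320 at only 1 end and 161 at none, and both ends fell in introns in 88 pairs. Ends in an intron upstream of the partner's last intron made up 22.1% of forward and 22.5% of reverse ends.

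The end of the stronger TU and that of the weaker TU were not placed alike. The stronger TU ended in the last exon of its partner in 416 pairs (59.6%), and the weaker TU in 338 pairs (48.4%). An intron of the partner held the end of the stronger TU in 209 pairs and that of the weaker TU in 296 pairs. Conversely, the complete last exon lay inside the overlap for the stronger TU in 372 pairs and for the weaker TU in 283 pairs. This nearly restates the counts of ends, because a last exon lies wholly inside when the partner's end falls outside it or at its first base. The stronger TUs had shorter last exons, with a median of 2.58 kb, against 3.48 kb in the weaker TUs. The order was the same in convergent pairs without overlap (2.14 and 2.63 kb) and in head-to-head pairs (1.92 and 3.10 kb). The placement of the ends was not separated from these lengths. The ranking by FPKM is itself tied to the last exon, whose coverage enters the FPKM.

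Ends close to a splice site of the partner were counted because reads placed on the wrong strand would carry the exon borders of the other TU. The end of the stronger TU lay within 10 bp of a splice site of its partner in 13 pairs (1.86%), and exactly at it in 5, while for the weaker TU these numbers were 35 (5.01%) and 23. In the 158 pairs that differed over 8-fold in FPKM the ends within 10 bp numbered 2 for the stronger and 11 for the weaker TU. An intron with both borders in common was found in 1 pair, FORW.3471 and REV.3327 on chromosome 3 (FPKM 2.22 and 1.24), named here with its values known. An FPKM under 2% of that of the partner was found in 11 pairs and under 5% in 39 pairs. The counts of ends near splice sites were not set against a number expected from the splice sites per span. The part of misplaced reads in the pairs was not tested. Without the 46 pairs with an end within 10 bp of a splice site, left out after the data were seen, the median overlap of the other 652 was 3.19 kb and the coverage ratio of last exons was 0.564 (with these pairs, 0.553).

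**Figure D3:**
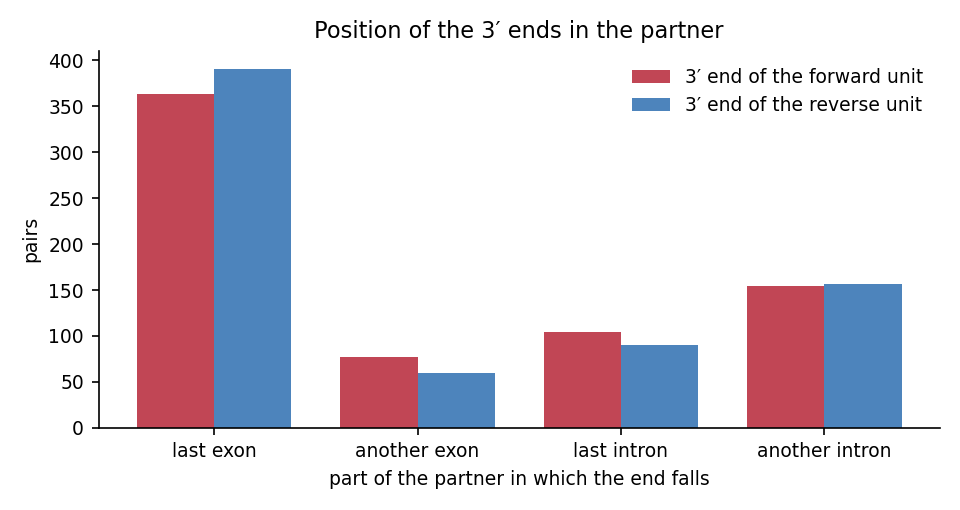
Number of tail-to-tail pairs (y axis) by the part of the partner in which the 3′ end fell, for forward and reverse TUs. The last exon received 363 forward and 391 reverse ends, and introns other than the last 154 and 157.

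The last exons of overlapping TUs were somewhat longer than those of convergent TUs that did not overlap, and they were covered less. Their median length was 2.95 kb (quartiles 1.61 and 5.55 kb, range 0.025 to 55.7 kb) in the 1395 TUs of tail-to-tail pairs, against 2.39 kb in 3782 TUs of convergent pairs without overlap and 2.38 kb in 1274 TUs of head-to-head pairs. A long last exon makes an overlap more likely by construction, so this difference is tied to the rule. Over all eligible TUs the median was 2.91 kb. The last exon was the longest exon in 1076 TUs of tail-to-tail pairs (77.1%), in 72.7% of TUs of convergent pairs without overlap and in 71.7% of TUs of head-to-head pairs. Last exons of 10 kb or more were no more frequent in tail-to-tail pairs (109 TUs, 7.81%) than in convergent pairs without overlap (345 TUs, 9.12%). Across the 698 tail-to-tail pairs, Spearman's rho between the last exons of the partners was -0.14, against 0.18 in convergent pairs without overlap. In tail-to-tail pairs overlap length and the sum of both last exons had a rho of 0.48. The pairs were kept by their overlap, to which both last exons contribute, so these correlations are tied to the rule as well.

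Read coverage of the last exon was divided by that of the other exons of the same TU. This ratio did not enter the rule itself. It is still not independent of the rule, because last-exon length is tied to the rule and longer last exons had lower ratios. The median ratio was 0.553 in TUs of tail-to-tail pairs (quartiles 0.274 and 1.02), 0.797 in convergent pairs without overlap (quartiles 0.457 and 1.27) and 0.815 in head-to-head pairs. Over all eligible TUs it was 0.733. The last exon was covered less than the other exons in 1034 of 1395 TUs (74.1%) of tail-to-tail pairs, against 2383 of 3782 (63.0%) in convergent pairs without overlap and 66.2% of all eligible TUs. A ratio under 0.5 was found in 648 (46.5%) and 1073 (28.4%) TUs of these 2 classes. Both parts of the ratio differed, since the median coverage of the last exon was 35.8 in tail-to-tail pairs and 42.5 reads per base in convergent pairs without overlap, and that of the other exons 77.0 and 59.4. The first exon did not show the same order, with medians of 0.646 in tail-to-tail pairs, 0.576 in convergent pairs without overlap and 0.393 in head-to-head pairs, whose 5′ ends overlap. The first exon thus had a lower ratio than the last exon in head-to-head pairs and also in convergent pairs without overlap, while in tail-to-tail pairs the last exon had the lower one.

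The coverage ratio was split by properties of the TUs that differ between the classes. TUs of tail-to-tail pairs had more exons, with a median of 9 against 7 in convergent pairs without overlap. With 2 to 4, 5 to 9 and at least 10 exons, however, the ratio was 0.552, 0.559 and 0.551 in tail-to-tail pairs, and 0.752, 0.835 and 0.808 in convergent pairs without overlap. Longer last exons had lower ratios in both classes. For last exons under 1 kb the medians were nearly equal, 0.942 and 0.916, while they were 0.628 and 0.874 at 1 to 3 kb, 0.461 and 0.719 at 3 to 6 kb and 0.386 and 0.589 at 6 kb or more. By FPKM the ratio was 0.557 and 0.675 under an FPKM of 2, 0.426 and 0.667 from 2 to 5, 0.462 and 0.782 from 5 to 10 and 0.696 and 0.944 at 10 or more. The lower ratio of tail-to-tail pairs was present in each class of exon number and FPKM. It was also present in each class of last-exon length but the shortest. These splits do not remove the tie to the rule. The split by FPKM is also tied to the ratio itself, because the coverage of the last exon enters the FPKM. The assembled 3′ end decides the overlap and also the stretch over which the coverage of the last exon was averaged. Convergent pairs with small gaps were looked at with limits chosen after the data were seen. With a gap under 5 kb the ratio was 0.918 (1158 TUs) and with a gap under 1 kb 0.844 (432 TUs). These TUs had shorter last exons, with medians of 1.76 and 1.78 kb, and a higher median FPKM, 8.30 and 8.92, and the part of either in the ratio was not separated.

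Inside tail-to-tail pairs the ratio varied with the strength of the TU and with the position of the exon. It was 0.670 in the stronger and 0.481 in the weaker TUs, against 0.852 and 0.742 in convergent pairs without overlap. FPKM scales with mean coverage over all exons, and the last exon held a median of 55.1% of exonic length in tail-to-tail pairs. A thinly covered last exon therefore lowers the FPKM that ranks the partners. Comparisons of the ratio between stronger and weaker TUs are thus partly built in. Last exons that lay wholly inside the overlap (654 TUs, median length 1.93 kb) had a ratio of 0.646, and those partly inside it (741 TUs, 4.39 kb) a ratio of 0.477. These positions differ in exon length, and their part was not separated from it. In 302 of 698 tail-to-tail pairs (43.3%) the stronger TU had the lower ratio of both partners, and in 895 of 1891 convergent pairs without overlap (47.3%). Forward and reverse TUs were alike, with ratios of 0.537 and 0.567.

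**Figure D4:**
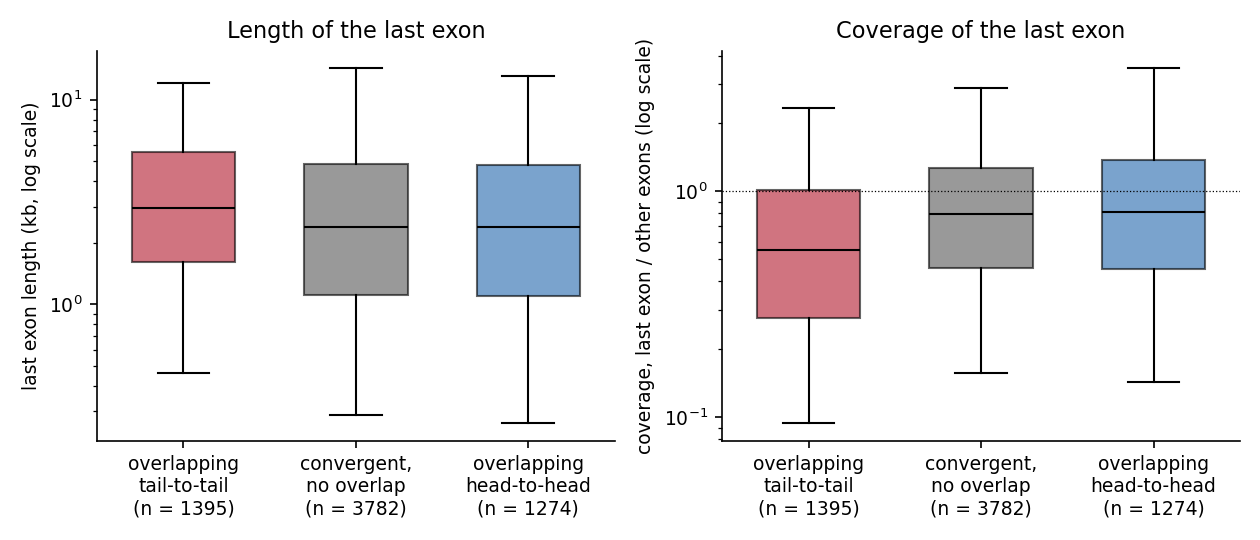
Length of the last exon (left, kb, log scale) and its coverage divided by that of the other exons of the TU (right, log scale) in 1395, 3782 and 1274 TUs of tail-to-tail pairs, convergent pairs without overlap and head-to-head pairs. Boxes show quartiles, lines in them medians (right: 0.553, 0.797 and 0.815) and whiskers the 5th and 95th percentiles, and the dotted line marks equal coverage.

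The partners of tail-to-tail pairs were about as unequal in FPKM as convergent partners that did not overlap. The stronger TU exceeded the weaker one by a median of 3.00-fold (quartiles 1.69 and 7.18) in tail-to-tail pairs, 3.37-fold in convergent pairs without overlap and 3.38-fold in head-to-head pairs, and by at most 174-fold in tail-to-tail pairs. FPKM values lay within 2-fold of each other in 235 tail-to-tail pairs (33.7%) and 566 convergent pairs without overlap (29.9%), and over 8-fold apart in 158 (22.6%) and 487 (25.8%). Because both runs were scaled to their own totals, the difference of FPKM percentiles within the run was also taken, with a median of 18.8 points in tail-to-tail pairs and 20.6 points in convergent pairs without overlap. Neither strand led, as the forward TU was the stronger one in 337 of 698 pairs (48.3%), with a median log2 ratio of forward over reverse of -0.10. Spearman's rho between forward and reverse FPKM was 0.13 in tail-to-tail pairs, 0.17 in convergent pairs without overlap and -0.01 in head-to-head pairs.

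In level, TUs of tail-to-tail pairs had a median FPKM of 5.05, against 4.99 in convergent pairs without overlap and 3.94 in all eligible TUs. The stronger partner had a median of 10.2 in tail-to-tail pairs and 11.2 in convergent pairs without overlap, and the weaker partner 2.68 and 2.25. Convergent pairs with small gaps, a limit chosen after the data were seen, had higher levels. With a gap under 5 kb the median FPKM was 8.30, with 16.3 in the stronger and 3.85 in the weaker partner. With a gap under 1 kb these medians were 8.92, 15.8 and 4.37. Both TUs reached an FPKM of 10 in 81 tail-to-tail pairs (11.6%) and 249 convergent pairs without overlap (13.2%). A TU of at least 10 faced a partner under 2 in 80 (11.5%) and 279 (14.8%) of these pairs.

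Several pairs joined highly covered TUs on both strands. FORW.3122 (47221581 to 47229424) and REV.2982 (47228671 to 47237416) on chromosome 3 had FPKM values of 99.0 and 78.1, the highest for the weaker TU of any pair, and shared 754 bp, of which 462 bp was exon on exon. The last exon of FORW.3122, only 298 bp long, was covered by 1096 reads per base, about as much as the other exons (1043), while the last exon of REV.2982 (1106 bp) had 552 against 1086. FORW.4232 (49018283 to 49023619) and REV.4061 (49022547 to 49134692) on chromosome 4, with FPKM values of 89.3 and 56.5, overlapped by 1073 bp, all exon on exon. In FORW.9935 and REV.9822 on chromosome 26 (FPKM 37.5 and 44.8; overlap 949 bp) both last exons had low coverage, with 195 against 695 reads per base in the other exons of FORW.9935 and 319 against 1276 in those of REV.9822. FORW.9246 and REV.9077 on chromosome 20 (55.8 and 33.2) shared 2991 bp, and FORW.3838 and REV.3686 on chromosome 4 (64.7 and 28.6) 2803 bp. The end of FORW.3838 lay 5 bp from a splice site of its partner.

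The other strong pairs were FORW.2395 and REV.2303 on chromosome 2 (FPKM 48.9 and 28.5; overlap 726 bp), FORW.7969 and REV.7806 on chromosome 14 (28.5 and 44.1; 278 bp), FORW.1169 and REV.1034 on chromosome 1 (27.7 and 29.4; 834 bp), FORW.8948 and REV.8783 with their 25 bp, and FORW.5355 and REV.5193 on chromosome 5 (42.0 and 25.5; 2583 bp). The overlap of these 10 pairs, with the highest weaker FPKM, thus ran from 25 to 2991 bp and stayed below the median of all pairs. The end of FORW.5355 coincided with a splice site of REV.5193.

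Among the 183 pairs whose stronger TU reached an FPKM of 20, the most unequal was FORW.7635 (15978519 to 15988830) and REV.7480 (15986590 to 15997704) on chromosome 12, with FPKM values of 99.3 and 0.570, or 174-fold. The last exon of FORW.7635 was covered by 1396 and that of REV.7480 by 7.04 reads per base, and REV.7480 ended exactly at a splice site of FORW.7635. FORW.6799 and REV.6679 on chromosome 9 (60.5 and 0.414) differed 146-fold and shared 18804 bp. FORW.7903 and REV.7732 on chromosome 13 (68.6 and 0.522) differed 131-fold over 1595 bp of exon on exon. FORW.3022 and REV.2869 on chromosome 3 (60.0 and 0.618) differed 97.2-fold, and the end of REV.2869 lay 12 bp from a splice site of FORW.3022. In all 4 the forward TU was the stronger one, and 1 of the 4 weaker TUs ended within 10 bp of a splice site of its partner.

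The most equal of these pairs were FORW.1169 and REV.1034 (1.06-fold), FORW.4820 and REV.4663 on chromosome 5 (FPKM 19.4 and 20.7, 1.07-fold), FORW.6307 and REV.6151 on chromosome 8 (19.1 and 20.6, 1.08-fold) and FORW.9935 and REV.9822 (37.5 and 44.8). Equal FPKM did not mean equal coverage of the last exons or of the other exons, because FPKM averages over all of them. In FORW.4820 the last exon of 791 bp had 217 reads per base, close to the 195 of the other exons, whereas the last exon of REV.4663, with 4906 bp, had 40.5 against 1002. REV.4663 ended exactly at a splice site of FORW.4820.

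**Figure D5:**
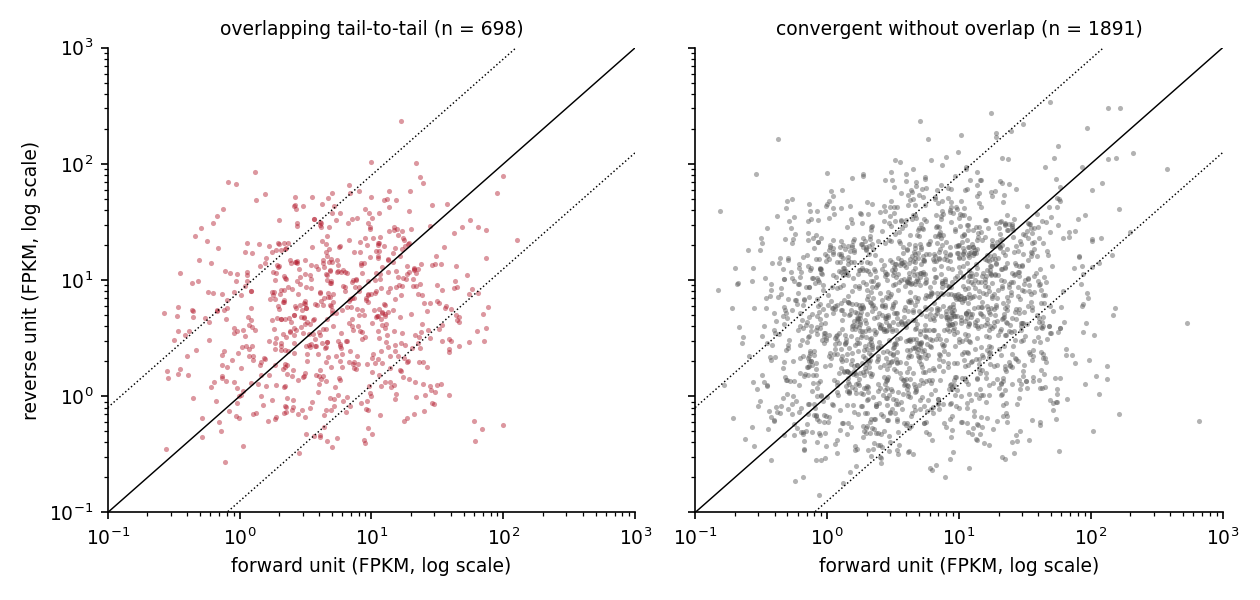
FPKM of the forward TU (x axis, log scale) against FPKM of the reverse TU (y axis, log scale) in 698 tail-to-tail pairs (left) and 1891 convergent pairs without overlap (right). Each point is a pair, the solid line marks equal FPKM and the dotted lines an 8-fold difference, outside which lie 158 and 487 pairs.

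Each pair was defined by the transcript with the highest FPKM of both TUs, so this transcript overlapped the partner by the rule. The isoform counts and FPKM shares below are tied to that choice. Pairs in which both TUs had 1 isoform met them in advance. At least 1 partner had several isoforms in 573 of 698 pairs, and all isoforms of both TUs reached into the partner TU in 431 of these (75.2%), or in 556 of all pairs (79.7%). Isoforms that overlapped the partner held 90% or more of the FPKM of both TUs in 569 pairs (81.5%), and less than 50% of the FPKM of a TU in 12 pairs. Several distinct 3′ ends within a TU were present in 288 pairs (41.3%).

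Tail-to-tail pairs were found on each of the 27 chromosomes, with a higher density on smaller ones. Chromosomes 1 to 5 held 317 pairs (0.515 per Mb), chromosomes 6 to 15 held 232 (0.997 per Mb) and chromosomes 17 to 28 held 149 (1.50 per Mb). The density of eligible TUs differed in the same direction, with 10.5, 16.4 and 21.2 per Mb, and the share of eligible TUs in such pairs was 9.83%, 12.2% and 14.2%. The median overlap was 2.80, 4.06 and 3.18 kb. Single chromosomes ranged from 2.02% of eligible TUs on chromosome 25, with FORW.9840 and REV.9741 as its only pair, to 22.5% on chromosome 21 and 20.8% on chromosome 15.

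The shortest member was FORW.10067 on chromosome 27, with a span of 5003 bp, an overlap of 617 bp with REV.9951 and FPKM values of 17.4 and 23.2 in the pair. Just outside lay FORW.10225 and REV.10108 on chromosome 28, whose shorter TU had a span of 4989 bp and which shared 4431 bp (FPKM 11.3 and 2.97). The shortest overlap was the 10 bp named above, and the nearest pair without overlap, FORW.2727 and REV.2598 on chromosome 3 (FPKM 15.0 and 10.9), was separated by 1 bp.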

How the data were processed

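Poly(A) RNA of single LBC-stage chicken oocytes had been sequenced from 2 nuclei and 2 ooplasm samples. The authors trimmed reads with cutadapt, aligned them with HISAT2 to ASM2420605v2, split them by strand, pooled the unique reads and ran StringTie 2.2.2 separately for forward and reverse reads. The deposited assembly lists FPKM, TPM and mean read coverage, as the authors computed them, for each transcript, and coverage also for each exon. Each run was scaled to its own total, with TPM sums of 997030 (forward) and 998714 (reverse) and 10.6 and 10.5 reads per base for each FPKM, so ratios across strands rest on near-equal scales. Coverage assigned by the assembler was compared within a TU, as a ratio, and as a level between TUs and classes of pairs. Weak transcripts under its coverage minima (1.2 reads per base for multi-exon transcripts) are missing. The assembler allowed gaps of up to 300 bp between mapped reads, so a long assembled exon need not be covered throughout.

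Pairs, overlaps and coverage ratios, weighted by exon length, were computed in Python 3.11.15 with NumPy 2.4.6 and SciPy 1.17.1, and the geometry was tested on simulated data. Nothing else was fitted. Coordinates are 1-based positions of ASM2420605v2. No sequence was used here. Samples were grouped as nucleus and ooplasm, but no column belongs to a sample and the groups were not compared. Pairs were named by rank, as the 10 with the highest weaker FPKM, the 6 longest overlaps and exon-on-exon stretches, the 4 shortest overlaps, the 4 most unequal and the 4 most equal in FPKM with a stronger TU of at least 20, those nearest to the limits, and those of the TU in most pairs. Other minima of span, overlap, exons and FPKM, another transcript per TU, a pseudocount and other chromosomes were tried. The members and lists were chosen with earlier results of these data known.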

Additional observations from a re-analysis of the deposited data

How the results depend on the processing

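No paired analysis was possible because the reads were pooled before assembly and no column belongs to a sample, although nucleus and ooplasm share replicate numbers. Of 68 values recomputed under alternatives, 21 moved beyond the range set for them. This range was 1.5-fold for numbers of pairs and a 95% binomial interval over pairs or TUs for the other values. Pairs and TUs are not replicates, so the range only marks the size of a shift and gives no precision. None moved when the 46 of 698 pairs with an end within 10 bp of a splice site of the partner were left out. Leaving out so few pairs could shift the values only little, so this does not measure the part of misplaced reads. That alternative was added after the data were seen. The number of pairs was 397 with a minimum span of 10 kb, 465 with both TUs at or above the median FPKM and 381 without chromosomes 1 to 5. The median overlap was 2.39 kb with no minimum span, 3.57 kb with a minimum overlap of 500 bp, 3.58 kb with the longest transcript of each TU, 2.90 kb at or above the median FPKM and 3.71 kb without chromosomes 1 to 5. With both TUs at or above the median FPKM exon lay on exon in 100% of pairs. The median exon-on-exon share of the overlap was 76.7% with no minimum span and 61.5% with a minimum overlap of 500 bp. The median absolute log2 ratio of FPKM, 1.59 as reported, was 1.77 with the longest transcript, 1.24 at or above the median FPKM and 1.23 with a pseudocount of 1 FPKM. The last exon had a median of 2.52 kb with no minimum span, 3.27 kb with 10 kb, 3.21 kb with the longest transcript, 2.71 kb at or above the median FPKM and 2.70 kb with at least 3 exons. Some of these shifts follow from the setting itself. A pseudocount shrinks every ratio, a minimum overlap drops the shortest overlaps, and stricter limits on span, FPKM or chromosomes can only remove pairs. The cause of the other shifts was not tested. The coverage ratio of the last exon lay between 0.535 and 0.585 under each alternative tried for it. With no replicates and an unknown depth per library, the precision of single values cannot be given.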

Other observations

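TUs of tail-to-tail pairs were also found at overlapping 5′ ends. Of the 1395 TUs, 227 (16.3%) belonged to an overlapping head-to-head pair as well, against 443 of 3782 TUs (11.7%) of convergent pairs without overlap. Among all eligible TUs the share was 1274 of 12357 (10.3%). The 227 TUs of tail-to-tail pairs thus overlapped a neighbour at both of their ends.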
